A study of Arabidopsis thaliana with 6 samples.

Results

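The genes atp1, atp8 and atp9 encode 3 subunits of the mitochondrial ATP synthase, complex V of the respiratory chain. They were taken by name from gene levels that cover 24 mitochondrial genes of Arabidopsis thaliana, ecotype Col-0, and all 3 were present in every library. Libraries of ribosome-protected fragments (footprints) and of total RNA came from mitochondria isolated from the youngest leaves of plants aged 9 to 10 weeks. Only the mutant seedlings had been raised on kanamycin (50 mg/l), and chloramphenicol (100 µg/ml), which holds mitochondrial ribosomes on their messenger RNA, was added to the mitochondria of all 6 libraries. Wild type (WT) was set against the phenotypes P2 and P3 of a mutant labelled Rps10 +/-. The label names rps10, a gene for a small-subunit protein of the ribosome of mitochondria. It does not by itself say what kind of change the mutant carries. P2 and P3 thus carry the same genotype label, which does not by itself say whether they come from the same mutant line. Each of the 3 kinds of plants gave 1 footprint library and 1 RNA library, 6 in all, each from 15 pooled mitochondrial preparations, so no comparison had replicates and no p-value is given.

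The ATP synthase uses the proton gradient across the inner mitochondrial membrane to make ATP. It has a soluble head, F1, where ATP is formed, and a membrane part, Fo, through which protons pass. atp1 encodes the alpha subunit of F1. atp9 encodes subunit c, a small hydrophobic protein of which many copies form the ring that turns in the membrane, and atp8 encodes a small membrane subunit of Fo. In Arabidopsis the mitochondrial genome also holds atp4, for a subunit of the stalk that holds the head in place, and the copies atp6.1 and atp6.2 of the gene for subunit a, which borders the ring. The other subunits, among them the catalytic beta subunit, are made from nuclear genes. In the TAIR10.1 gene table atp1, atp8 and atp9 each have 1 entry and overlap no other named gene. atp1 lies between a serine tRNA gene and rps7, atp8 between nad7 and an isoleucine tRNA gene, and atp9 between an atp6 copy and an aspartate tRNA gene.

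Levels were deposited as TPM (reads per length of gene, scaled to a total of 1000000 in each library), so they can be compared between genes, and a gene's level is its part of these 24 genes. Footprint reads on mitochondrial coding sequence numbered 416254 in WT, 80146 in P2 and 48653 in P3, or 5.37%, 0.530% and 0.407% of all reads after trimming (95% Wilson intervals 5.36 to 5.39, 0.526 to 0.533 and 0.403 to 0.411, for counting error only). For RNA the numbers were 1971931, 3126478 and 2122781, or 45.8%, 37.3% and 37.4%. Reads behind a single gene were not given and were not estimated, so no value below is set against its depth. Leaf input per isolation (about 30 g for WT and 15 g for the mutant), kanamycin selection of mutant seedlings and genotype cannot be told apart. Plastid genome reads were 5.32% of RNA reads in WT, 1.22% in P2 and 1.21% in P3. Plastids have an ATP synthase of their own with related subunits, and the part of such reads in the levels below was not tested.

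In wild-type mitochondria atp9 and atp1 stood first and second of the 24 genes in both RNA and footprints. The 3 genes together held 53.2% of the RNA TPM and 45.6% of the footprint TPM. In the mutant their joint part was smaller, and more so for footprints. It was 33.9% of RNA in P2 and 35.7% in P3, and 20.4% of footprints in P2 and 14.9% in P3. The 3 other complex V genes held 13.2%, 10.4% and 9.37% of RNA and 14.9%, 10.6% and 9.22% of footprints in WT, P2 and P3.

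**Figure D1:**
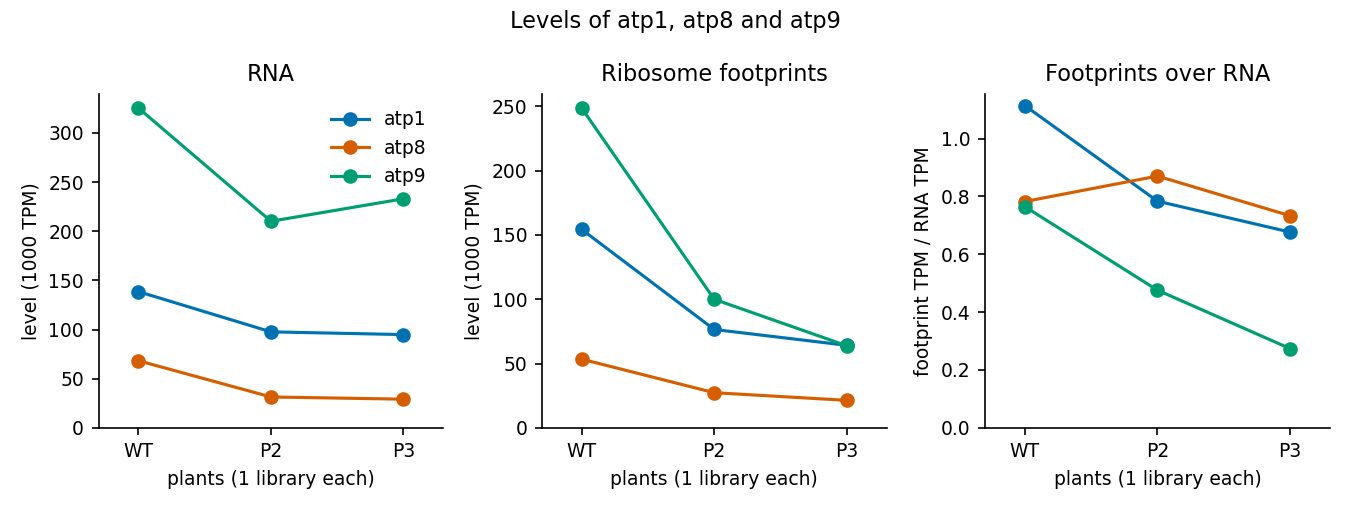
Level of atp1, atp8 and atp9 (y axes, units of 1000 TPM for RNA and footprints, and footprint TPM divided by RNA TPM) in WT, P2 and P3 (x axis), with 1 library per point. Footprints of atp9 were 248628 TPM in WT, 99971 in P2 and 63849 in P3. Its RNA was 325300, 210135 and 233015 TPM, and the footprint over RNA value of atp8 stayed between 0.733 and 0.870.

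RNA levels were compared to show how much of the messenger RNA each gene took. The RNA of atp8 was 68276 TPM in WT, 31392 in P2 and 29161 in P3. Both mutant values were thus below WT, by 2.17-fold in P2 (log2 ratio -1.12) and 2.34-fold in P3 (-1.23), and in each phenotype this was the lowest log2 ratio of the 24 genes. The rank of atp8 by RNA level went from 4 in WT to 14 in P2 and 12 in P3. For atp1 the RNA levels were 138579, 97630 and 94861 TPM, with log2 ratios over WT of -0.51 in P2 and -0.55 in P3. RNA of atp9, the most abundant transcript in all 3 RNA libraries, was 325300 TPM in WT, 210135 in P2 and 233015 in P3, with log2 ratios of -0.63 and -0.48.

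By a rule of 1.5-fold (0.58 on the log2 scale), atp8 and atp9 were called lower in RNA in P2, and atp8 alone in P3. Over all 24 genes 2 were called lower in each phenotype (8.33%), so in P2 both of these calls were members, and in P3 the other was atp4. atp1 fell just short of the rule in both phenotypes, as did atp9 in P3. Of the 6 complex V genes, 2 were called lower and 0 higher in each phenotype. Genes called higher, with 0 members among them, made up 58.3% of the 24 in P2 and in P3. The median log2 ratio of the 6 complex V genes, which include the 3 members, was -0.50 (P2) and -0.53 (P3). For the 3 other complex V genes it was -0.36 and -0.52, and for all 24 genes 0.84 and 0.78. Read against that median gene, atp1 stood at -1.34 and -1.33, atp8 at -1.96 and -2.01, and atp9 at -1.47 and -1.26. With median-of-ratios scaling, which sets the typical gene to 0, with scaling by the share of coding reads and with scaling to the genes other than these 3, all 3 genes were called lower in both phenotypes, among 7, 5 and 5 of the 24 genes in each phenotype. TPM has a fixed total, so a smaller part of these 3 genes raises the others. Scaled to the genes other than these 3, the median of the 24 genes was 0.34 in P2 and 0.32 in P3.

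Footprint levels were compared to show how much of the ribosome-protected RNA each gene took. All 3 genes had lower footprint levels in both phenotypes, and of the 3 genes atp9 had the lowest value relative to WT. Over the 24 genes its log2 ratio was at place 3 from the lowest in P2 and 2 in P3. The atp9 footprints were 248628 TPM in WT, 99971 in P2 and 63849 in P3, so P2 was 2.49-fold (log2 ratio -1.31) and P3 3.89-fold (-1.96) below WT. Its rank among the 24 genes went from 1 to 2 and 5. For atp1 the levels were 154323, 76482 and 64181 TPM, with P2 2.02-fold (-1.01) and P3 2.40-fold (-1.27) below WT. Footprints of atp8 were 53410, 27317 and 21378 TPM, with P2 1.96-fold (-0.97) and P3 2.50-fold (-1.32) below WT. WT was the highest and P3 the lowest of the 3 footprint libraries for each of these genes.

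All 3 members were past the 1.5-fold rule in each phenotype, and 7 of 24 genes were called lower in all (29.2%). Another 58.3% of the genes, with 0 members among them, were called higher in P2 and likewise in P3. The fourth complex V gene called lower was atp4 (-1.69 and -2.32). atp6.1 had ratios of -0.12 and -0.35, and its copy atp6.2, called higher, had 1.74 and 1.91. Reads could be divided between these copies, and the part of this in their ratios was not tested. The median of the 6 complex V genes, which include the 3 members, was -0.99 (P2) and -1.29 (P3). For the 3 other complex V genes it was -0.12 and -0.35, with 1 called lower and 1 higher in each phenotype. For all 24 genes it was 1.30 and 1.32. Scaled to the genes other than the 3 members, the median of the 24 genes was 0.75 in P2 and 0.67 in P3. Ratios of TPM compare parts of the coding footprints, which were themselves a smaller part of the mutant libraries. Multiplied by the share of coding reads in each library, footprints of atp1, atp8 and atp9 were 20.5-fold, 19.8-fold and 25.2-fold lower in P2 and 31.8-fold, 33.0-fold and 51.4-fold lower in P3. Most genes were lower on this scale, with 18 of 24 called in P2 and 19 in P3 and a median log2 ratio of -2.04 and -2.41, since the coding share itself was 10.1-fold and 13.2-fold lower. RNA treated in this way was 1.74-fold, 2.67-fold and 1.90-fold lower in P2 and 1.79-fold, 2.87-fold and 1.71-fold lower in P3. The coding share is taken of all reads after trimming. Of the footprint reads, 56.7% in WT, 88.7% in P2 and 86.6% in P3 were mitochondrial tRNA and rRNA. The part of this in the footprint folds was not tested.

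**Figure D2:**
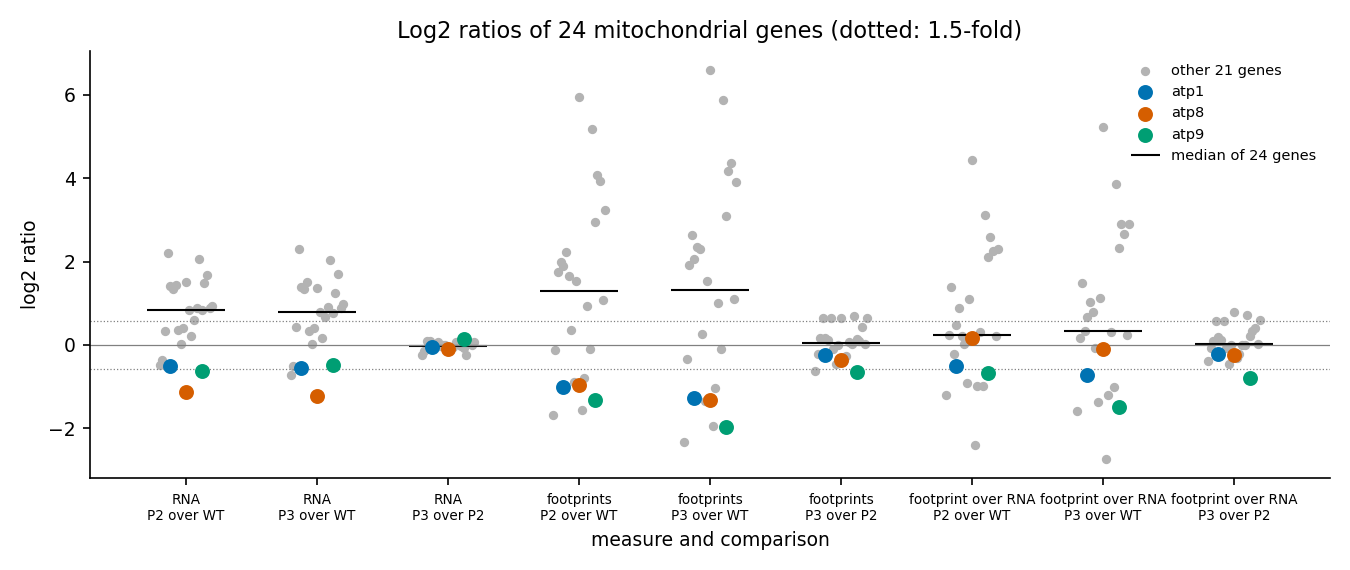
Log2 ratio (y axis) of 24 mitochondrial genes for each measure and comparison (x axis), with atp1, atp8 and atp9 coloured, the other genes in grey, a line at the median gene and dotted lines at 1.5-fold. The 3 members lie below the median gene in each comparison of a mutant phenotype with WT, and atp9 is the highest gene for RNA and the lowest for footprints in P3 over P2.

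Footprint level over RNA level, often called translation efficiency, was compared to set the footprint differences against those of RNA. The 3 genes differed from each other in this measure. For atp8 it was 0.782 in WT, 0.870 in P2 and 0.733 in P3, so that P2 was above and P3 below WT, with log2 ratios of 0.15 and -0.09. As TPM, the footprint and RNA levels of atp8 were thus lower by similar amounts. Multiplied by the share of coding reads they were not, as given below. For atp9 the values were 0.764, 0.476 and 0.274, so P2 was 1.61-fold (log2 ratio -0.68) and P3 2.79-fold (-1.48) below WT. For atp1 they were 1.11, 0.783 and 0.677, with log2 ratios of -0.51 in P2 and -0.72 in P3.

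The rule of 1.5-fold called atp9 lower in P2, where 6 of 24 genes were called lower (25.0%), and atp9 and atp1 in P3, where 7 were (29.2%). Genes called higher made up 37.5% in P2 and 45.8% in P3, with 0 members among them, and atp8 was called in neither direction. In the ranking of the 24 genes by footprint over RNA, atp9 went from 13 in WT to 22 in P2 and 23 in P3, and atp1 from 7 to 18 and 18, while atp8 stood at 12, 12 and 17. Among the other complex V genes, atp4 was lower (-1.20 and -1.59), atp6.2 higher (1.40 and 1.48) and atp6.1 had 0.24 and 0.17. The median of the 24 genes was 0.23 in P2 and 0.33 in P3. The calls moved with the scaling. When levels were multiplied by the share of coding reads, all 3 members were called lower in both phenotypes (7.44-fold for atp8 to 13.3-fold for atp9 in P2, and 11.5-fold to 30.1-fold in P3). So were 21 of 24 genes in P2 and 20 in P3, with medians of -2.82 and -3.10, so this count is close to that of all genes. Without the most abundant genes, which removes atp9 itself, 0 members were called in P2, where 5 of 22 genes were, and atp1 in P3, where 6 of 22 were.

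P3 was set against P2 to show where the phenotypes with the same genotype label differed. For atp9 the direction of RNA and footprints was opposite. Its RNA was higher in P3 than in P2 (log2 ratio 0.15, the highest of the 24 genes), its footprints were lower (-0.65, the lowest of 24), and its footprint over RNA value was 1.74-fold lower (-0.80, also the lowest). RNA ratios of P3 over P2 spanned only -0.24 to 0.15 over the 24 genes, and 0 were called lower or higher (0.00% each). Reads with mismatches were 17.2% of the mitochondrial RNA reads in P2, against 8.93% in WT and 6.27% in P3, and the part of this in the RNA ratio was not tested. For footprints 2 of 24 genes were called lower (8.33%), atp9 and atp4, and for footprint over RNA 1 of 24 (4.17%), atp9. Genes called higher made up 20.8% and 12.5%, with 0 members among them. In footprints, ccmB, ccmFN2 and tatC were called higher with the same ratio (0.65). With a filter of 1000 TPM, 3 of 22 genes were called higher in footprints. atp1 had P3 over P2 ratios of -0.04 for RNA, -0.25 for footprints and -0.21 for footprint over RNA, and atp8 had -0.11, -0.35 and -0.25.

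Levels of the subunits relative to each other were taken within each library, where the scaling of libraries has no part. In RNA, atp9 and atp1 kept about the same proportion, with 2.35 times as much atp9 as atp1 in WT, 2.15 in P2 and 2.46 in P3. atp8 RNA stood apart from both. The ratio of atp1 to atp8 RNA was 2.03 in WT, 3.11 in P2 and 3.25 in P3. For atp9 to atp8 it was 4.76, 6.69 and 7.99. In footprints the pattern was another one. The ratio of atp1 to atp8 footprints was 2.89, 2.80 and 3.00, a range far narrower than in RNA, while atp9 came down against both. Its footprints were 1.61 times those of atp1 in WT, 1.31 in P2 and 0.995 in P3, and 4.66, 3.66 and 2.99 times those of atp8.

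**Figure D3:**
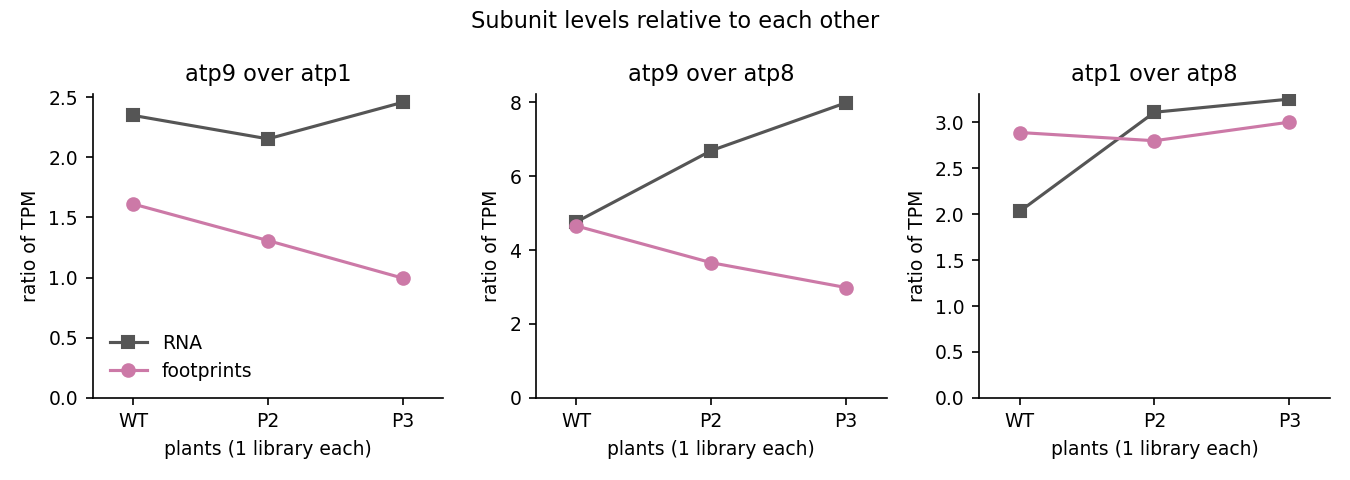
Ratio of TPM between members within a library (y axis) in WT, P2 and P3 (x axis), for RNA (squares) and footprints (circles), with 1 library per point. The atp9 to atp1 ratio is 2.15 to 2.46 in RNA and goes from 1.61 to 0.995 in footprints, and the atp1 to atp8 ratio is 2.80 to 3.00 in footprints and goes from 2.03 to 3.25 in RNA.

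The same could be read from the parts of complex V. Of the summed RNA TPM of the 6 complex V genes, atp9 held 49.0% in WT, 47.4% in P2 and 51.7% in P3, atp1 held 20.9%, 22.0% and 21.0%, and atp8 held 10.3%, 7.08% and 6.47%. Of the summed footprint TPM, atp9 held 41.0%, 32.3% and 26.4%, atp1 held 25.5%, 24.7% and 26.6%, and atp8 held 8.82%, 8.82% and 8.85%. The parts of atp1 and atp8 in the complex V footprints thus differed by less than 2 percentage points between libraries. The copies of atp6 held larger parts in the mutant, where atp6.1 had 9.62%, 17.3% and 19.0% and atp6.2 had 1.30%, 8.50% and 12.3%, while atp4 went from 13.7% to 8.35% and 6.90%. With no replicates, the spread these ratios would show between libraries of the same plants is unknown.

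Reading frames of the footprints were compared because ribosomes move by codons, so footprints of translating ribosomes gather in 1 of 3 frames, and an even spread would put 33.3% in each. Frame 0 held most of the footprints of the 3 genes in WT. The frame 0 share of atp8 was 61.1% in WT, 55.2% in P2 and 59.3% in P3. In P3 it was the highest share of the 24 genes and in P2 the second highest, against rank 9 in WT. For atp1 the share was 55.5%, 40.9% and 43.3%. For atp9 it was 55.9%, 40.7% and 35.1%, and in P3 frame 1 held more than frame 0, at 36.2%, with 28.7% in frame 2. Frame 0 was thus 22.6 percentage points above an even share in WT, 7.38 in P2 and 1.79 in P3 for atp9, while for atp8 it was 27.8, 21.9 and 26.0 points above.

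**Figure D4:**
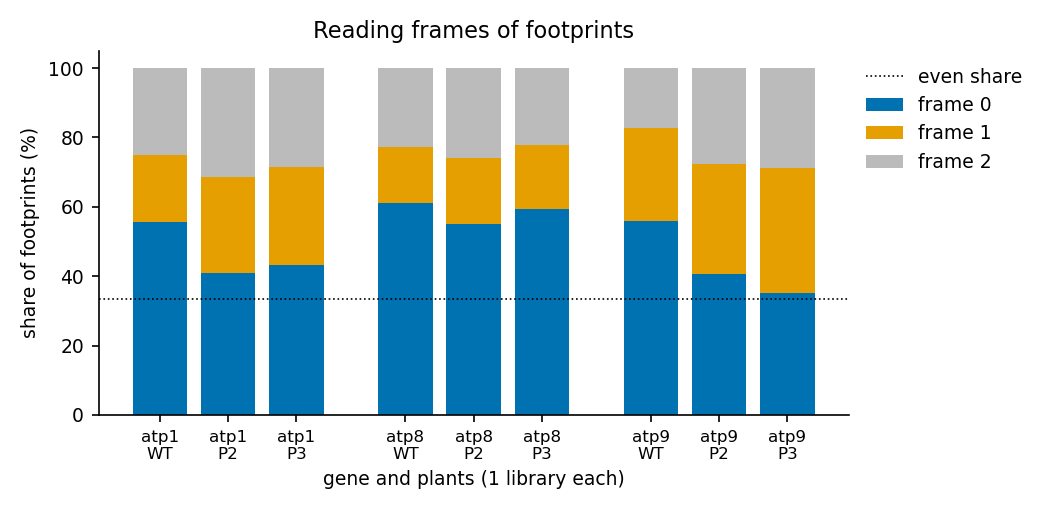
Share of footprints (y axis, percent) in frames 0, 1 and 2 for atp1, atp8 and atp9 in WT, P2 and P3 (x axis), with 1 library per bar and a dotted line at the even share of 33.3%. Frame 0 is the largest part of each bar but that of atp9 in P3, where frame 1 holds 36.2% and frame 0 holds 35.1%.

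The frame 0 share was below WT for all 24 genes in both phenotypes. The median share over these genes was 59.2% in WT, 47.0% in P2 and 45.0% in P3, and the median difference from WT was -12.1 percentage points in P2 and -11.3 in P3. Against these, atp1 had -14.6 and -12.2 points, atp9 had -15.2 and -20.8, and atp8 had -5.95 and -1.82. Ordered from the largest difference, atp9 was at place 6 of 24 in P2 and 4 in P3, atp1 at 7 and 11, and atp8 at 20 and 23. Frame 0 was not the largest frame for 1 gene in WT (rpl16), 2 in P2 (ccmFN2 and rpl16) and 3 in P3 (these and atp9). The gain of the other frames was not the same in both genes. In atp1 frame 1 gained 8.18 points in P2 and 8.84 in P3, and frame 2 gained 6.40 and 3.35, while in atp9 frame 2 gained the most, at 10.5 and 11.5 points, against 4.76 and 9.35 in frame 1. Footprints per gene were not given with these shares and were not estimated from them. How far the shares could move through counting error alone was thus not worked out. This limit also holds for the order of frames 1 and 0 of atp9 in P3 (36.2% and 35.1%). Reads of the mitochondrial genome outside tRNA and rRNA that fell on coding sequence were 62.6% of footprint reads in WT, 17.3% in P2 and 14.9% in P3, and the part of other reads in the frame shares was not tested.

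**Figure D5:**
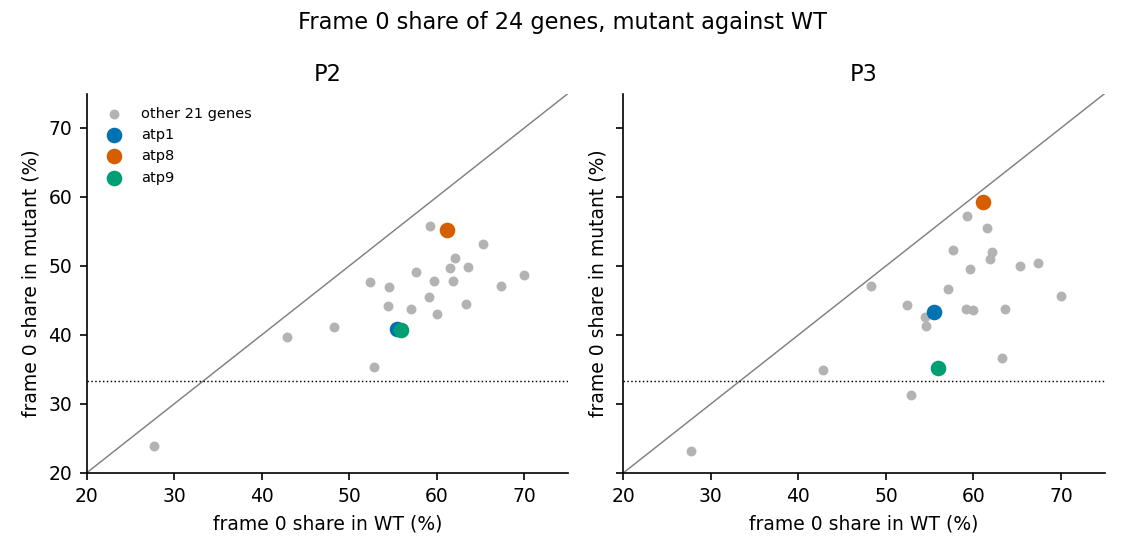
Frame 0 share (percent) in P2 and in P3 (y axes) against that in WT (x axes) for 24 genes, with atp1, atp8 and atp9 coloured, the diagonal of equal shares and a dotted line at 33.3%. All genes lie below the diagonal, atp8 (55.2% in P2 and 59.3% in P3) close to it and atp9 in P3 (35.1%) close to the dotted line.

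Weighting each gene's footprint level by its frame 0 share widened the gap between atp9 and atp8. This follows by construction from the frame 0 shares given above and is not a separate result. The log2 ratio over WT of the footprints was then -1.40 in P2 and -2.25 in P3 for atp9, -1.08 and -1.24 for atp1, and -0.75 and -0.98 for atp8. Footprint over RNA of atp8 was then 0.38 in P2 and 0.25 in P3, so its P3 value changed from below to above WT.

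The genes whose patterns were most like those of the members were found by the distance between log2 levels over the 6 libraries, with each kind of library centred on its mean. Nearest to atp1 were cox1, for a subunit of cytochrome c oxidase (distance 0.47), and atp9 (0.51). Nearest to atp8 were atp1 (0.54) and atp9 (0.70), and nearest to atp9 were atp4 (0.41) and atp1 (0.51). cox1 shared with atp1 the lower footprints (-0.89 in P2 and -1.34 in P3), while its RNA had ratios of 0.02 and 0.02. atp6.2, another ATP synthase gene, was at place 13 of 23 from each member (distances 2.55, 2.77 and 2.99 for atp1, atp8 and atp9).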

How the data were processed

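Libraries were grouped by their titles in the labels, which gave 6 groups of 1 library. Mitochondria were pooled with chloramphenicol (100 µg/ml), footprints were isolated after nuclease digestion, and rRNA was depleted, per the labels' protocols. STAR and featureCounts are named in the submitters' processing notes. For their settings, the genome build, the annotation and the assignment of footprints to frames the sources used here give nothing, so no coordinates or sequences are printed. Gene levels were deposited as TPM over 24 genes, per the file headers. Frame shares were deposited as a fraction of footprints per gene, and reads per class of sequence as whole numbers, per the file headers.

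Log2 ratios of TPM were computed without a pseudocount (Python 3.11.15, pandas 2.3.3, scipy 1.17.1), and genes at least 1.5-fold apart were counted. The ratio step was checked on simulated data without noise and with known changes, after median-of-ratios scaling. The main ratios, which do not use that scaling, were not checked in this way. Groups of 1 library allowed no test. Alternatives were other scalings, a 2-fold rule, a pseudocount of 1 TPM, a filter of 1000 TPM and footprint levels weighted by the frame 0 share. Genes named are atp1, atp8 and atp9, the other complex V genes, and the 2 nearest genes of each member by pattern, and genes were also named after their values were seen where a count was 5 or fewer. The members and lists were chosen with earlier results of these data known. The gene table was used for names and neighbours only.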

Additional observations from a re-analysis of the deposited data

Results flagged for a closer look

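Footprint over RNA of atp8 is listed because P2 and P3 lay on opposite sides of the wild type, with log2 ratios of 0.15 in P2 and -0.09 in P3. Both are far inside the 1.5-fold rule, each rests on 1 mutant footprint library and 1 mutant RNA library set against the same wild-type pair, and the difference was not tested.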

How the results depend on the processing

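Of the 18 log2 ratios over wild type of atp1, atp8 and atp9 (3 measures and both phenotypes), 17 were below 0 as reported, 18 with median-of-ratios scaling and with coding-share scaling, and 17 when scaled to the genes other than the 3 members. In each of these, and with a pseudocount of 1 TPM, a filter of 1000 TPM and the frame 0 weighting, no called ratio changed sign. Most of these could not have changed one. Every called ratio was below 0, and these scalings lowered each ratio. Without the most abundant genes, footprint over RNA of atp1 and atp8 rose. The filter changes no ratio, and 1 TPM is very small beside the levels. All 3 members were called lower in footprints in both phenotypes as reported (among 7 of 24 genes) and with median-of-ratios (10 of 24), other-gene (9) and coding-share scaling (18 in P2 and 19 in P3, so close to the share of all genes), and 2 in P2 with a 2-fold rule (4 of 24).

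For RNA, 2 members in P2 and 1 in P3 were called lower as reported (2 of 24 genes in each). In both phenotypes 3 were called with median-of-ratios (7 of 24), coding-share (5) and other-gene scaling (5), 2 of 2 without the most abundant genes (4 of 23; atp9 in RNA, atp9 and cox3 in footprints), and 1 with a 2-fold rule (1 of 24). For footprint over RNA in P2, 1 was called (6 of 24), 2 with median-of-ratios scaling (8), 3 with coding-share scaling (21), and 0 with a 2-fold rule (2) or without the most abundant genes (5 of 22). In P3, 2 were called (7 of 24), 3 with median-of-ratios (9) or coding-share scaling (20), and 1 with a 2-fold rule (6) or without the most abundant genes (6 of 22). The causes were not tested beyond what the construction of each alternative sets. With the frame 0 weighting the log2 change from wild type of footprint ratios between members went from -0.30 to -0.32 in P2 and from -0.70 to -1.01 in P3 for atp9 over atp1, from -0.35 to -0.66 and from -0.64 to -1.27 for atp9 over atp8, and from -0.05 to -0.34 and from 0.06 to -0.26 for atp1 over atp8. The count of members with a lower frame 0 value was 3 of 3, as it was for 24 of 24 genes. Dividing frame 0 by the mean of the other frames could not change this count, because the shares of a gene add up to a fixed total.

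Each group holds 1 library, so no paired analysis was possible and no library was left out. Depth per gene was not given and was not estimated, so small differences, such as those of atp8 in footprint over RNA, are not set against counting error.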
